A study of Rattus norvegicus with 8 samples.

Results

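Long intergenic predicted lncRNAs are assembled transcripts that overlap no annotated gene, are 1000 bases or longer and passed the authors' coding filters. They were taken from the authors' lncRNA table as the rows with class code u, the assembler's mark for an intergenic transcript. The rule found 1389 of 4686 transcripts (29.6%), from 1341 assembled loci. The samples are thoracic aortas of wild-type male Sprague Dawley rats, 12 weeks old and 180 to 200 g by the labels. The nitroglycerin group (4 libraries) received subcutaneous nitroglycerin (glyceryl trinitrate), a drug that relaxes vessels by releasing nitric oxide. The dose was 100 mg/kg, given 3 times daily over 3 days, and the control group (4 libraries) received ethanol vehicle. Every library was depleted of ribosomal RNA before sequencing. The labels give the tissue as aorta, although their extraction text names an adipose type. The labels do not say that each library is a rat of its own, so the p-values cover only variation among these samples, which may be technical.

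A long non-coding RNA is a transcript without a recognised protein. Intergenic ones are known as regulators that act on nearby genes or elsewhere in the cell, and many are expressed at low levels in few tissues. In vessels, some are known to shape the contractile state of smooth muscle. An assembled intergenic transcript can also be an unannotated piece of a gene, and a coding score alone does not separate these.

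Aligned sequence, taken from the ratio of coverage to FPKM, was 7.48 to 8.86 Gb in control and 6.77 to 8.39 Gb in nitroglycerin libraries. All 7 smooth muscle markers with a row, such as Myh11 and Acta2, were at 1 FPKM or more in all 8 libraries. Their summed level was 2033 to 2708 FPKM in control and 1267 to 2658 in nitroglycerin libraries. The 7 endothelial markers summed to 32.9 to 55.2 FPKM and 55.3 to 64.4, the 5 fibroblast markers to 1698 to 2469 and 1403 to 1526, and the 5 macrophage markers to 21.3 to 26.5 and 29.1 to 37.7. The 7 fat markers summed to 9.22 to 24.4 FPKM in control and 14.0 to 110 in nitroglycerin libraries, with nitroglycerin replicate 1 the highest. The 5 skeletal muscle markers summed to 21.01 to 30.9 FPKM in control and 13.6 to 20.9 in nitroglycerin libraries. By limma at an adjusted p under 0.05, 2 of 6 tested endothelial, 1 of 5 macrophage and 1 of 3 skeletal muscle markers were called. None of the 7 smooth muscle, 5 fibroblast or 3 fat markers tested was called. Over all 12977 tested genes, 1.29% were called higher with nitroglycerin and 0.0616% lower. The marker sums and calls are for the values as deposited, before the rescaling described below. After that rescaling the shares over all genes were 0.0308% and 0.1%. No marker of these lists was at 0 in all 8 libraries. Their part in the results that follow was not tested, and in whole tissue fewer cells of a type and less RNA per cell cannot be told apart.

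The transcripts had a median length of 2471 bases (quartiles 1530 and 4706), and the longest reached 52375 bases. At the length limit, the nearest transcripts outside had 996, 996 and 999 bases, and the nearest inside 1001, 1002 and 1004. A single exon made up 1210 of the 1389, while 136 had 2 exons, 31 had 3 and 12 had more, 9 with 4, 2 with 5 and 1 with 6. The table put 647 on the plus strand and 742 on the minus strand. The CPC score, the first of a pair of coding-potential scores that are negative for non-coding sequence, had a median of -1.14 and was -1 or lower in all of them, down to -1.41. The CNCI score had a median of -0.0303 and was also below 0 throughout. Among shorter intergenic transcripts (1432) the median CPC score was -1.17, and among intronic transcripts (1421) -1.15.

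Expression was low. The median over transcripts of the mean level across libraries was 0.580 FPKM, against 0.343 for shorter intergenic transcripts and 0.583 for intronic transcripts of 1000 bases or more. A mean of at least 1 FPKM was reached by 423, and of at least 10 FPKM by 11. Of the 11112 single values, 40.9% were exactly 0 and only 1.29% lay between 0 and 0.1 FPKM. Of the values above 0, 77.7% lay between 0.5 and 3 FPKM. An exact 0 in a table without counts can be a failed estimate, so a transcript listed at 0 is not shown to be absent.

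Detection differed with structure. Values above 0 in all 8 libraries were found for 307 transcripts, or 22.1%. The share was 15.04% for single-exon transcripts, 66.2% with 2 exons and 81.4% with 3 or more. By length it was 15.1% under 2000 bases, 23.1% from 2000 to under 5000, 30.0% from 5000 to under 10000 and 36.7% above. Longer and spliced transcripts were also higher, with a median mean level of 1.21 FPKM in those with 2 or more exons against 0.537 FPKM in single-exon ones. These shares are descriptions of 1 assembly made over these same libraries.

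**Figure D1:**
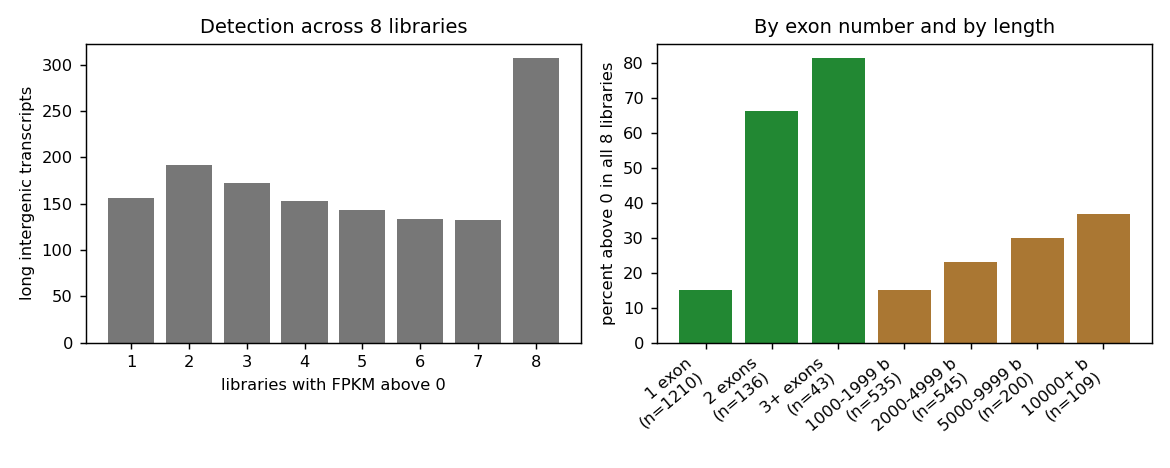
Left, number of long intergenic transcripts (bars) by the number of libraries with FPKM above 0. Right, percent above 0 in all 8 libraries by exon number (green) and length in bases (brown), with the transcripts per class in brackets; the share rises from 15.04% with 1 exon to 81.4% with 3 or more.

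Libraries differed in how many of the transcripts they held. The number above 0 was 782, 797, 821 and 806 in control replicates 1 to 4, and 787, 809, 816 and 949 in nitroglycerin replicates 1 to 4. Nitroglycerin replicate 4 stood highest, and the other nitroglycerin libraries lay within the control range. Of the 156 transcripts above 0 in a single library, 45 (28.8%) were in nitroglycerin replicate 4 and 7 in control replicate 1. Nitroglycerin replicate 4 also held the highest share of the table's other transcripts above 0, 57.1%, against 45.9% to 51.4% in the remaining libraries, at the lowest aligned sequence of all (6.77 Gb).

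The level where detected separated the groups. The median of the values above 0 was 0.825, 1.21, 1.08 and 1.13 FPKM in control libraries, and from 1.49 FPKM (replicate 2) to 1.75 FPKM (replicate 4) in nitroglycerin libraries. Every nitroglycerin library lay above every control library, and control replicate 1 was the lowest. The same order held for the table's other transcripts, at 0.817 to 1.22 FPKM and 1.47 to 1.68 FPKM. Median-of-ratios size factors, computed from tested genes of the gene table above 0 in every library, were 0.742 to 0.996 in control and 1.07 to 1.22 in nitroglycerin libraries, so the main counts and medians, and the differences named below as rescaled, are also given after dividing by them.

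**Figure D2:**
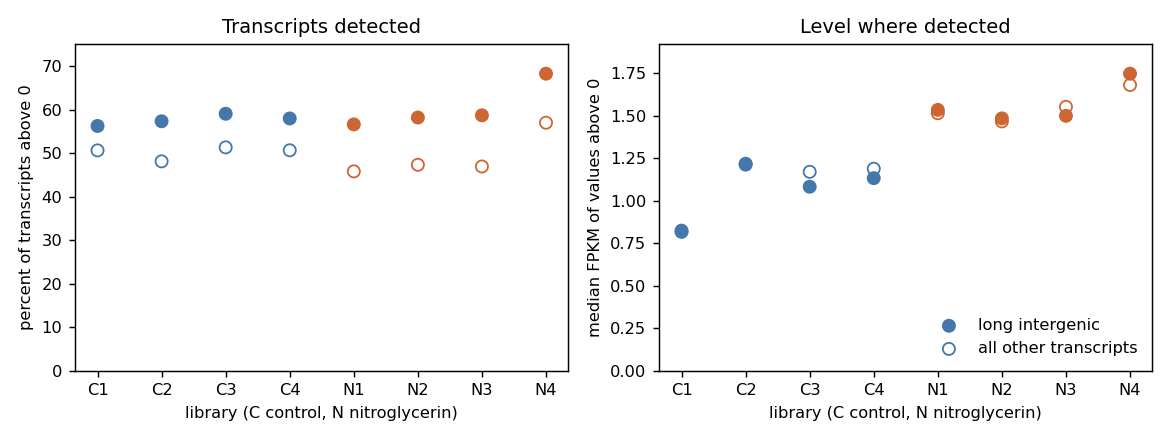
Each point is a library (C control, N nitroglycerin); filled points are the long intergenic transcripts and open points all other transcripts of the table. Left, percent above 0, highest in N4 at 68.3%; right, median FPKM of values above 0, where N1 to N4 (1.49 to 1.75) lie above C1 to C4 (0.825 to 1.21).

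The test asked which transcripts differ between nitroglycerin and vehicle. It used the 845 that reached 0.1 FPKM in 4 or more libraries, and 544 were described only. No long intergenic transcript passed limma's test with Benjamini-Hochberg adjustment over the 2390 tested transcripts of the table, at an adjusted p under 0.05. The lowest adjusted p was 0.124, or 0.0652 rescaled. Both were those of MSTRG.5462.1, whose p-values support nothing because it met the filter through the control libraries alone. A single transcript passed over all that were tested, a background of 0.0418%. Without limma's mean-variance trend 2 of the 845 passed, MSTRG.5462.1 and MSTRG.14198.1, which had met the filter through the control libraries alone. At an unadjusted p under 0.05, 75 were higher with nitroglycerin (8.88%, against a background of 7.62%) and 7 lower (0.828%, against 1.13%). Rescaled, these counts were 25 (2.96%, against 2.8%) and 16 (1.89%, against 2.13%). The groups did not overlap, with nitroglycerin above, for 73 (8.64%, against 7.28%), and with control above for 3 (0.355%, against 0.335%). All of these shares lie near those of the whole table. Pairs of libraries correlated at only 0.34 to 0.49 over the tested transcripts of the table. Of the 845, 540 were listed at 0 in some library. An absence of calls therefore does not show an absence of change. Without nitroglycerin replicate 4 the unadjusted counts were 47 higher and 17 lower, and without nitroglycerin replicate 3 they were 49 and 14. Leaving out nitroglycerin replicate 2 gave 13 lower, and leaving out control replicate 3 gave 4 lower.

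The median difference over the 845 was 0.41 on the log2(FPKM + 0.1) scale, against 0.36 over all tested transcripts. Differences were above 0 for 70.8%, against 68.5% over all tested transcripts. Rescaled, the median was 0.09 against 0.05, with 55.5% above 0 against 53.1%. By structure, the deposited-scale median was 0.38 for single-exon and 0.45 for spliced transcripts, and 0.09 for both after rescaling. Of the 305 tested transcripts above 0 in every library, 85.9% were above 0 in their difference as deposited and 55.7% rescaled.

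**Figure D3:**
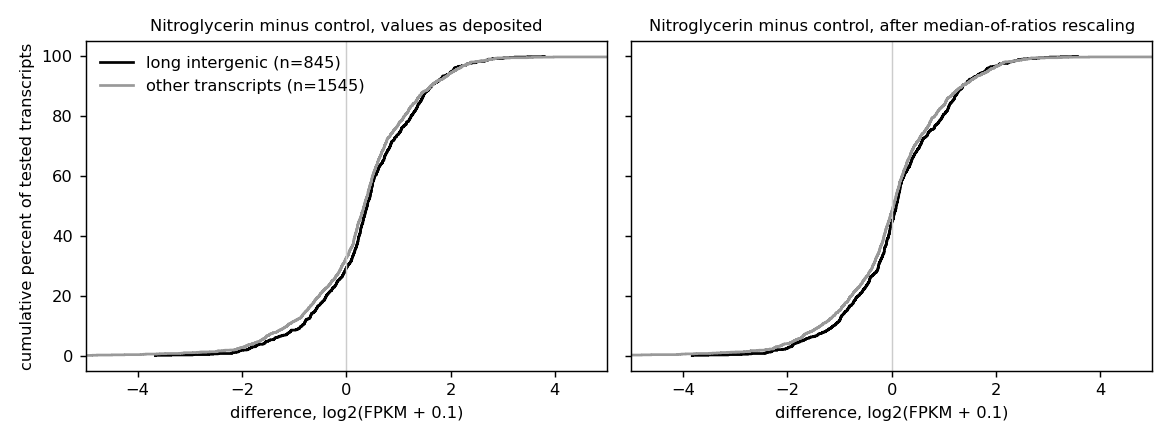
Cumulative percent of tested transcripts (vertical) by difference, nitroglycerin minus control, in log2(FPKM + 0.1) (horizontal), as deposited (left) and rescaled (right). The 845 long intergenic transcripts (black) run close to the others (grey), with medians of 0.41 as deposited and 0.09 rescaled.

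The 5 transcripts of lowest p on the higher side are described next. None passed after adjustment. MSTRG.16834.1 is a single exon of 16590 bases at chr5:171711606-171728195, next to Prdm16, a transcriptional regulator known from brown fat. It was at 0.545, 0.0983, 0 and 0 FPKM in control and at 1.61, 2.44, 4.32 and 2.20 FPKM in nitroglycerin libraries. All nitroglycerin values lay above all control values (limma adjusted p = 0.192; rescaled adjusted p = 0.426). Of the controls only replicate 1 reached 0.1 FPKM. The transcript therefore met the filter through the nitroglycerin libraries where it was high, and its p-values support nothing. Prdm16 itself was at 3.93 ± 2.24 FPKM and 4.62 ± 1.77 FPKM (mean ± SD, n = 4 per group; limma adjusted p = 0.605).

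MSTRG.15963.1 has 2 exons over chr5:100649969-100688943 and lies between Nfib, a transcription factor, and Zdhhc21, a palmitoyltransferase. Its levels were 1.47, 0.927, 1.72 and 1.53 FPKM in control and 4.39, 2.78, 4.29 and 5.13 FPKM in nitroglycerin libraries, again without overlap. The log2 difference was 1.49 (SE 0.30, limma adjusted p = 0.200), and 1.12 rescaled (adjusted p = 0.630). The flanking annotated row of Nfib was at 4.70 ± 1.39 FPKM and 6.75 ± 2.17 FPKM (limma adjusted p = 0.241).

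MSTRG.8058.1 has 3 exons over chr16:62098943-62113271, between Rbpms, an RNA-binding protein known in smooth muscle, and Gtf2e2, a general transcription factor subunit. It stood at 0.503, 1.40, 2.30 and 1.88 FPKM in control and at 3.26, 6.04, 8.98 and 5.88 FPKM in nitroglycerin libraries. The log2 difference was 2.01 (SE 0.48, limma adjusted p = 0.310), and 1.64 rescaled (adjusted p = 0.670). MSTRG.8058.2 of the same locus, with 2 exons, was at 0.761 ± 0.465 FPKM and 2.69 ± 0.968 FPKM. Both share sequence, so reads can be split between them.

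The other members of this group, MSTRG.14918.2 and MSTRG.14911.1, lie on chromosome 4 after Adamts9, a secreted metalloprotease that cleaves matrix proteoglycans. The interval, which RefSeq closes with Magi1, holds 6 long intergenic transcripts over 181 kb, all on the plus strand and all tested. All 6 had differences above 0, with log2 differences of 1.32 to 3.80 and unadjusted limma p of 0.000946 to 0.0432 (lowest adjusted p 0.206). After rescaling all 6 remained above 0, at 0.97 to 3.56, and 4 kept an unadjusted p under 0.05. Over all tested transcripts, 7.62% were higher at an unadjusted p under 0.05, and 2.8% rescaled. Differences were above 0 for 68.5% of all tested transcripts, and for 53.1% rescaled. MSTRG.14918.2 and MSTRG.14918.3 overlap at the same locus, so reads can be split between them. The largest difference, of MSTRG.14911.1, has no measured size, because most control values were listed at 0. It was 1.54 with 1 added to FPKM and 6.26 with 0.01 added. Of the controls only replicate 4 reached 0.1 FPKM for MSTRG.14911.1, so it met the filter through the nitroglycerin libraries. Its p-values therefore support nothing, although it is counted in the 6 and the 4 above. The interval was noted because 2 of its members were among the lowest p.

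MSTRG.14918.2, with 3 exons at chr4:125105592-125165120, was at 0.868, 0.823, 1.13 and 0.677 FPKM in control and at 3.01, 2.08, 2.56 and 2.50 FPKM in nitroglycerin libraries. MSTRG.14911.1, a single exon of 21048 bases at chr4:125000279-125021326, was listed at 0 in control replicates 1 to 3 and at 0.834 FPKM in control replicate 4. In nitroglycerin libraries it was at 3.51, 1.21, 2.06 and 3.31 FPKM. Neither showed overlap between the groups. Adamts9 was at 2.81, 3.33, 2.53 and 2.15 FPKM in control and at 5.77, 4.90, 5.39 and 4.77 FPKM in nitroglycerin libraries. It passed the gene test, with a log2(FPKM + 1) difference of 0.75 (SE 0.12, limma adjusted p = 0.0460), and did not pass rescaled (0.44, adjusted p = 0.224).

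On the lower side, MSTRG.5462.1, a single exon of 3448 bases at chr12:41533251-41536698 between Rita1 and Tpcn1, an endolysosomal cation channel, had the lowest p of the 845. It was at 0.775, 1.41, 1.31 and 1.27 FPKM in control libraries and listed at 0 in every nitroglycerin library (limma adjusted p = 0.124). MSTRG.14198.1, 1358 bases at chr4:8023115-8024472 between Pus7 and Srpk2, a kinase of splicing factors, had the same pattern. Its control values were 0.721, 1.49, 0.854 and 0.791 FPKM, and its nitroglycerin values were listed at 0 (limma adjusted p = 0.186). Both reached the test only through the control libraries where they were high, so a difference was built into their selection, and their p-values support nothing. No fold is given for either, because a level listed at 0 has no measured size. MSTRG.11732.1 on chromosome 2 was also above 0 in the 4 control libraries only, at 0.0335 to 1.58 FPKM, but missed the filter. These 3 were the ones above 0 throughout a group and at 0 throughout the other, and no transcript had the opposite pattern.

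The remaining transcripts of lowest p on the lower side were above 0 in 1 or 2 nitroglycerin libraries. They met the filter largely through the control libraries where they were high, so their p-values are given as description only. MSTRG.13120.1, near Pde1a, a calmodulin-dependent phosphodiesterase that degrades cyclic nucleotides, was at 0.529, 0.744, 1.36 and 0.867 FPKM in control libraries. In nitroglycerin libraries it was at 0.526 FPKM in replicate 1 and listed at 0 in the others (limma adjusted p = 0.505). MSTRG.20041.1, between Tln2 and Vps13c, was at 1.35, 4.04, 0.948 and 0.811 FPKM in control and at 1.55 FPKM in nitroglycerin replicate 2 alone (limma adjusted p = 0.524). MSTRG.16625.1, between Tcea3 and Hnrnpr, was at 0.424, 0.819, 1.57 and 1.04 FPKM in control, and at 0.205, 0.576, 0 and 0 FPKM in nitroglycerin libraries (limma adjusted p = 0.551). The groups overlapped for MSTRG.20041.1 and MSTRG.16625.1.

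**Figure D4:**
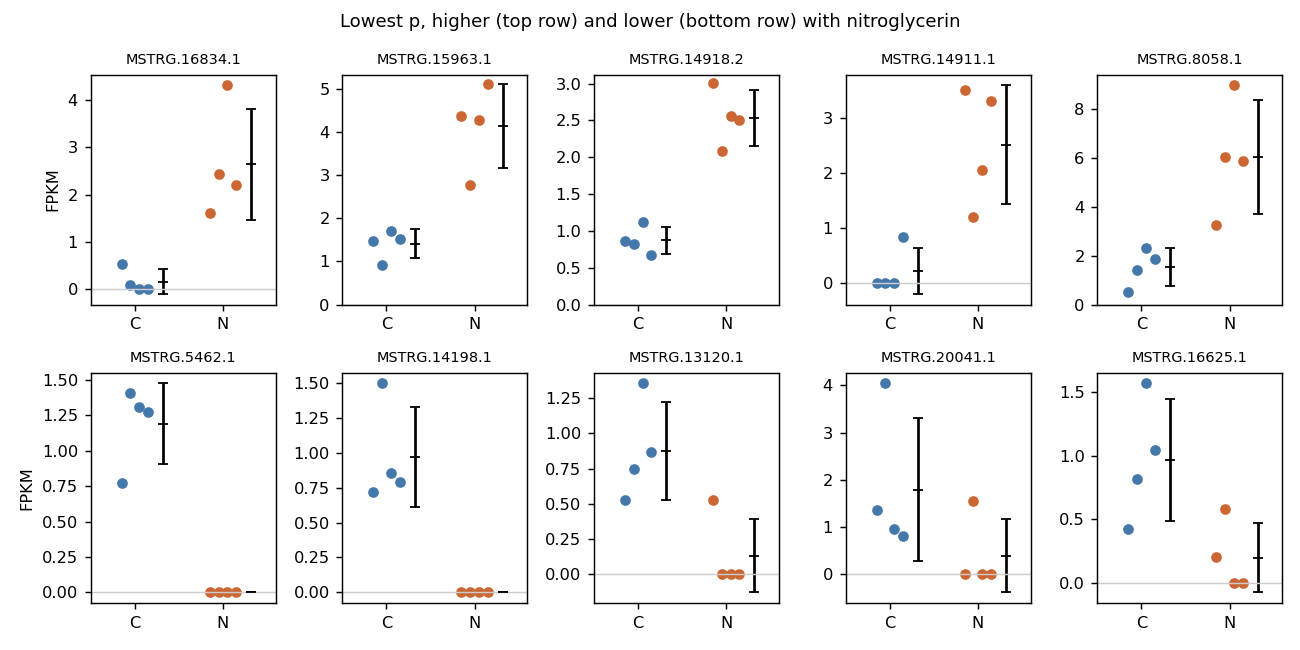
FPKM (vertical) per library for the 10 tested transcripts of lowest p, 5 higher (top) and 5 lower (bottom) with nitroglycerin; C control, N nitroglycerin, 4 libraries each, bars mean and SD. MSTRG.5462.1 and MSTRG.14198.1 are at 0 in all 4 nitroglycerin libraries.

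None of the 5 most abundant transcripts passed the test. MSTRG.11037.1, 2666 bases at chr2:150880088-150882753 beside Mbnl1, a splicing regulator, was at 39.4 ± 8.69 FPKM in control and 39.3 ± 15.9 FPKM in nitroglycerin libraries (mean ± SD, n = 4 per group). Mbnl1 itself was at 6.52 ± 0.938 FPKM and 8.56 ± 1.67 FPKM, so the intergenic transcript stood above its annotated neighbour on a per-length scale. The limma adjusted p was 0.955 for the transcript.

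MSTRG.1972.2 is a single exon of 22024 bases at chr1:221182328-221204351 on the minus strand, with Frmd8 at the next locus. The locus before it, of Rn60_1_2212.4, was at 76.1 ± 19.5 FPKM in control and 96.1 ± 25.8 FPKM in nitroglycerin libraries. Its levels were 24.8, 80.8, 27.2 and 27.0 FPKM in control and 34.2, 34.1, 44.9 and 13.0 FPKM in nitroglycerin libraries (limma adjusted p = 0.876). Control replicate 2 was the highest and nitroglycerin replicate 4 the lowest. The locus holds 5 overlapping long intergenic transcripts, so reads can be split between them. In control replicate 2 only 1 of the 5 was above 0, against 2 or 3 in each other library.

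MSTRG.11367.1, 3176 bases at chr2:197787104-197790279, lies between Ensa and Adamtsl4. It was listed at 0 in control replicate 1 and at 53.2, 34.3 and 32.8 FPKM in the other controls. In nitroglycerin libraries it was at 47.3, 3.08, 40.2 and 41.3 FPKM, so 1 library of each group stood far below the rest. RefSeq places the coding gene Mcl1, a survival factor of the Bcl-2 family, in this interval, and the symbol Mcl1 has no row in the gene table. MSTRG.6636.6 and MSTRG.6636.7, at 73.7 and 53.4 FPKM over all libraries, share 1 locus on chromosome 14 with other overlapping transcripts, so the split of reads between them is uncertain. The next locus, of AABR07015078.2, was far higher, at 1983 to 12931 FPKM in control and 2024 to 2721 FPKM in nitroglycerin libraries. For MSTRG.6636.6 every nitroglycerin value (73.6 to 148 FPKM) lay above every control value (0.296 to 62.3 FPKM), and it did not pass (limma adjusted p = 0.587).

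The longest transcripts were unevenly detected. MSTRG.7116.1 (52375 bases, 2 exons, chr15:9149134-9201757) lies between Thrb and Rarb, nuclear receptors for thyroid hormone and retinoic acid. It was at 1.85 FPKM in control replicate 1, at 3.80 FPKM in nitroglycerin replicate 1, and at 0 in the other 6 libraries. MSTRG.5271.1 (49991 bases, 1 exon, chr12:27682523-27732513) was above 0 throughout, at 1.98 ± 0.378 FPKM in control and 2.57 ± 0.475 FPKM in nitroglycerin libraries (limma adjusted p = 0.638), with a log2 difference of 0.37 that was -0.0040 rescaled. The next longest were MSTRG.14038.1 (36816 bases), MSTRG.6113.1 (36020) and MSTRG.19751.1 (35583), listed at 0 in 3, 1 and 1 libraries.

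Among the most spliced, MSTRG.21993.3 with 6 exons on chromosome X was at 0.749 ± 0.340 FPKM in control and 1.45 ± 0.318 FPKM in nitroglycerin libraries (limma adjusted p = 0.551). MSTRG.13625.1 with 5 exons, near the adrenergic receptor gene Adra1d and Prnp, was at 0.944 ± 0.318 FPKM and 1.35 ± 0.304 FPKM (limma adjusted p = 0.648). MSTRG.10544.2, also with 5 exons and next to the glutamate transporter gene Slc1a3, was at 0.00914, 3.92, 0.0982 and 0.0268 FPKM in control and at 4.84, 0.988, 1.77 and 0.0315 FPKM in nitroglycerin libraries. Its range within each group was wider than the difference between the group means, 1.01 and 1.91 FPKM.

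Transcripts lay in runs along the chromosomes. Of 1367 gaps between successive transcripts of a chromosome, 582 (42.6%) were at most 20 kb. Of those short gaps 98.6% joined transcripts of the same strand, against 61.7% of the 785 wider gaps. Linking transcripts across gaps of up to 20 kb gave 270 chains that held 852 transcripts, and 537 stood alone. All 39 chains of 5 or more were on a single strand. Chromosome 11 had the highest share of its table rows in the set among the numbered chromosomes, 44.4%, followed by chromosome 9 with 40.8%, and chromosome 7 the lowest, 20.8%.

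The longest chain held 20 transcripts over 180 kb on the minus strand of chromosome 9, from chr9:27874172-28053739, between Gsta3, a glutathione transferase, and Rims1, a presynaptic scaffold. Of these 19 had 1 exon and 12 were tested, with a median log2 difference of 0.89 (0.60 rescaled). Between the outer ends of the flanking genes RefSeq lists the coding genes Gsta1, Gsta6, Khdc1b and Kcnq5. The symbols Gsta6 and Khdc1b have no row in the gene table. Whether chain members belong to a coding gene was not tested. The number above 0 was 12, 8, 10 and 9 in control and 9, 13, 12 and 15 in nitroglycerin libraries, so the groups overlapped. MSTRG.20875.1 and MSTRG.20889.1 were the only members of the chain above 0 in all 8 libraries. The next chains, of 13 and 12 transcripts, were both on the minus strand of chromosome 2 and overlapped between groups in the same way, with median log2 differences of 0.18 and -0.14 (-0.05 and -0.37 rescaled).

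**Figure D5:**
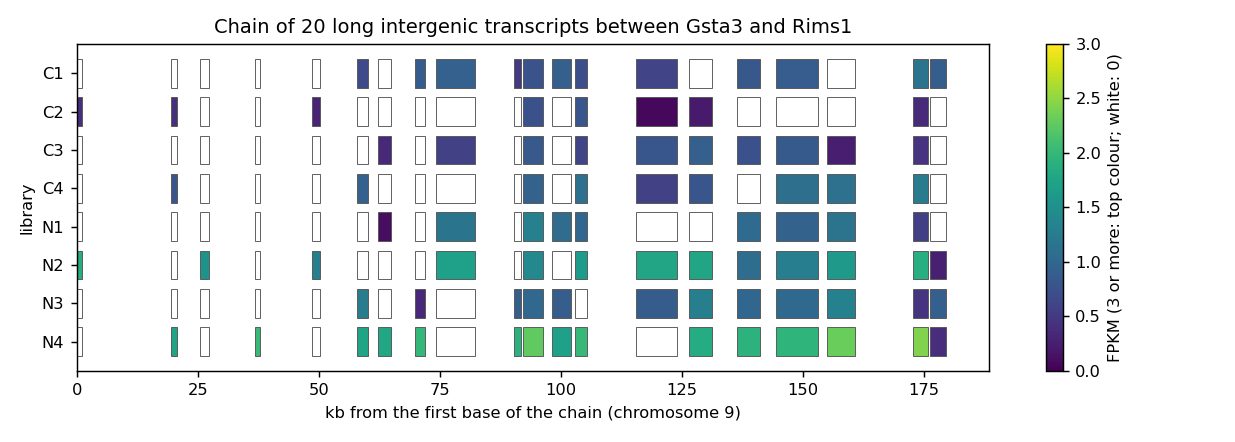
Each box is a transcript of the 20-member chain on chromosome 9, placed in kb from the chain's first base (horizontal) and shown per library (rows; C control, N nitroglycerin), coloured by FPKM with white for 0. Boxes above 0 number 8 to 12 in control and 9 to 15 in nitroglycerin libraries.

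Neighbouring genes were read from the assembler's locus numbers, because the gene table gives no positions. An annotated gene was at the very next locus for 485 transcripts (34.9%), and the median was 2 loci away. Both flanks were matched in RefSeq for 1351 transcripts, and an interval shared by several transcripts was counted for each of them. The interval was counted between the outer ends of the flanking genes, so genes nested within a flanking gene count as inside it. So counted, it held at least 1 annotated lncRNA gene for 1105 of these transcripts (81.8%) and a microRNA gene for 160. For 589 (43.6%) it held a coding gene whose RefSeq symbol has no row in the gene table. Older names were not searched here, so such a gene can have a row under another name.

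Of the 660 tested genes that flank a tested transcript, 7 rose with nitroglycerin (1.06%, against a background of 1.29%) and 0 fell (background 0.0616%) by limma at an adjusted p under 0.05. Their median log2(FPKM + 1) difference was 0.30, equal to the 0.30 of all genes. Rescaled, 0 were higher (background 0.0308%) and 1 lower (background 0.1%). The 7 were Tm4sf1, a tetraspan membrane protein of endothelium, Adamts9, Plcl1, a phospholipase C-like protein, Prcp, a carboxypeptidase that acts on angiotensin, Ctcf, a chromatin insulator protein, Npepo, an aminopeptidase, and Uqcrb, a subunit of respiratory complex III. None of the 7 passed after rescaling.

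Tm4sf1, next to MSTRG.11003.1, rose from 5.67 ± 1.06 FPKM to 11.7 ± 0.623 FPKM (mean ± SD, n = 4 per group; limma adjusted p = 0.0414, rescaled 0.206). Ctcf, next to MSTRG.9904.1, rose from 4.66 ± 0.525 FPKM to 7.61 ± 0.615 FPKM (limma adjusted p = 0.0492, rescaled 0.180). Npepo, with 3 tested intergenic neighbours, rose from 1.15 ± 0.181 FPKM to 3.36 ± 1.29 FPKM (limma adjusted p = 0.0492, rescaled 0.159). These calls lie close to the threshold. As deposited, the summed endothelial markers were 32.9 to 55.2 FPKM in control and 55.3 to 64.4 FPKM in nitroglycerin libraries, the same direction as Tm4sf1. These sums were not rescaled, although size factors were also higher in nitroglycerin libraries (1.07 to 1.22) than in control (0.742 to 0.996). The part of the markers in the Tm4sf1 value was not tested. Leaving out 1 library at a time gave 0 to 10 called neighbours, and none were called without control replicate 3, control replicate 4, nitroglycerin replicate 1 or nitroglycerin replicate 3.

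The gene called lower after rescaling was Col4a6, a basement membrane collagen chain on chromosome X. It was at 26.6, 33.6, 29.7 and 33.9 FPKM in control and at 17.0 (replicate 1) to 22.7 FPKM (replicate 2) in nitroglycerin libraries, without overlap (limma adjusted p = 0.0615 as deposited, 0.0361 rescaled). Its partner Col4a5 was at 60.8 ± 6.72 FPKM and 42.2 ± 8.30 FPKM (rescaled limma adjusted p = 0.0966). The 6 long intergenic transcripts after Col4a6 and the 7 before Col4a5 were all on the minus strand. Of the 12 tested, the differences were above 0 for all 5 after Col4a6 (0.83 to 1.78) and all 7 before Col4a5 (0.02 to 1.99) as deposited. Rescaled, 5 and 6 were above 0 and none had an unadjusted p under 0.05. Over all tested transcripts, 68.5% were above 0 as deposited and 53.1% rescaled. These intervals were described after their values were seen.

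Transcription factors of vessels flanked 22 transcripts, 19 of them tested, and 14 of the 108 listed factors were involved. MSTRG.2553.1, next to the Wnt effector gene Tcf7l2, was at 0, 1.14, 1.04 and 0 FPKM in control and at 3.07, 1.44, 1.99 and 2.50 FPKM in nitroglycerin libraries (limma adjusted p = 0.516). MSTRG.6932.1 near Meis1 was at 1.81 ± 0.241 FPKM and 2.42 ± 0.423 FPKM, MSTRG.13364.1 near Meis2 at 1.08 ± 0.186 FPKM and 1.28 ± 0.571 FPKM, and MSTRG.16619.1 near Id3 at 1.17 ± 0.295 FPKM and 1.42 ± 0.0954 FPKM (control, then nitroglycerin; mean ± SD, n = 4 per group). None of the 4 passed after adjustment. After rescaling, the log2 difference was -0.21 for MSTRG.13364.1 and -0.06 for MSTRG.16619.1, opposite to the deposited scale, and 0.02 for MSTRG.6932.1.

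Of 42 listed well-known lncRNA genes, 4 had a row in the gene table and 1, Tug1, was tested. Tug1 was at 2.32, 2.92, 2.96 and 2.20 FPKM in control and at 3.91, 3.77, 3.93 and 4.44 FPKM in nitroglycerin libraries. The groups did not overlap, and the gene did not pass (limma adjusted p = 0.0589, rescaled 0.454).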

How the data were processed

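Members and lists were chosen with earlier results of these data known. The authors' deposited tables give FPKM, a level scaled by transcript length and library size, for 27742 genes and 4686 lncRNA transcripts. The lncRNA table also holds coverage per base, a signal deposited per library, and the CPC and CNCI score per transcript, per the file headers. Tools listed in the submitters' processing notes are StringTie 1.3.0, HISAT2 2.0 and Bowtie 0.12.2, and the builds Rnor_6.0 and mm8, all without roles. Coordinates are those of the table, which states no build, so transcript sequences were not used here.

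Values were tested as log2(FPKM + 0.1) for transcripts (2390 tested) and log2(FPKM + 1) for genes that reached 1 FPKM in 4 or more libraries (12977 tested), with limma 3.58.1 in R 4.3.3, its variance trend and Benjamini-Hochberg adjusted p-values. Differences on these scales understate changes of low features. FPKM are relative and are not counts, so no counting intervals were computed. Rescaling used median-of-ratios factors. The fit was tested on simulated data.

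The planned distance windows around genes, and the transcripts to be named as nearest to or farthest from a gene, could not be computed, since the gene table holds no positions. Flanking genes were taken instead as the nearest annotated gene with a symbol by locus number, which followed genome order in all but 40 of 4480 steps, and 99.1% of 2149 RefSeq-matched flanks (GRCr8) were on the transcript's chromosome. The 6911 gene rows without a locus number could not be placed.

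Named transcripts were the 5 longest, 5 highest, 5 with most exons, 5 of lowest p in each direction, those above 0 in a single group, 5 beside vascular transcription factors and the 3 longest chains. The remaining members of the Adamts9, Rbpms and Col4a6 to Col4a5 intervals were described after their values were seen. Alternatives covered pseudocount, filter, scaling, test options, replicate block, fat markers and each library left out. Some flanking genes are not reported here.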

Additional observations from a re-analysis of the deposited data

Results flagged for a closer look

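A library that stood apart from the remaining 3 of its group was found 12 times in 96 comparisons within a group of 4. The 1 in 20 that the rule allows holds for normal values. The FPKM hold many exact zeros and many of these transcripts were named for extreme values, so no excess over chance is shown. In 7 of the 12 the other 3 libraries were at 0. These were MSTRG.1972.3 in control replicate 1 (1.70 FPKM) and nitroglycerin replicate 4 (0.340 FPKM), MSTRG.7116.1 in control replicate 1 (1.85 FPKM) and nitroglycerin replicate 1 (3.80 FPKM), MSTRG.13120.1 in nitroglycerin replicate 1 (0.526 FPKM), MSTRG.14911.1 in control replicate 4 (0.834 FPKM) and MSTRG.20041.1 in nitroglycerin replicate 2 (1.55 FPKM).

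MSTRG.1972.2, whose locus holds overlapping transcripts that can split its reads, was at 80.8 FPKM in control replicate 2 against 24.8 to 27.2 FPKM in the other controls. MSTRG.10544.2 was at 3.92 FPKM in control replicate 2 against 0.00914 to 0.0982 FPKM. MSTRG.20041.1 was at 4.04 FPKM in control replicate 2 against 0.811 to 1.35 FPKM. MSTRG.11367.1 was at 3.08 FPKM in nitroglycerin replicate 2 against 40.2 to 47.3 FPKM. The fat-marker score, a mean log2 value of fat markers, was 3.73 in nitroglycerin replicate 1 against 1.15 to 1.49 in the other nitroglycerin libraries.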

How the results depend on the processing

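Of 32 tested transcripts described by name, chain members aside, 21 kept their direction under every alternative and 11 did not. The 21 include all transcripts named for lowest p and the other members of the Adamts9 and Rbpms intervals. These were described because of their differences in these same libraries, so the 21 is no measure of stability. The 11 were all named for length, level, exon number or a flanking transcription factor. No refit brought any of the 32 past the threshold except MSTRG.5462.1 and MSTRG.14198.1 without the trend. Both met the filter through control libraries alone. Rescaled differences turned for MSTRG.5271.1 (-0.0040), MSTRG.6113.1 (-0.26), MSTRG.6636.7 (-0.068), MSTRG.13364.1 (-0.21) and MSTRG.16619.1 (-0.062). Quantile normalization turned MSTRG.6113.1 (-0.42), MSTRG.11037.1 (0.092), MSTRG.13364.1 (-0.31), MSTRG.13625.1 (-0.067) and MSTRG.16619.1 (-0.23). Equal summed FPKM turned MSTRG.1972.2 (0.43), MSTRG.7496.6 (0.26), MSTRG.11037.1 (0.60) and MSTRG.14038.1 (0.52). The fat-marker covariate turned MSTRG.6113.1 (-0.29) and MSTRG.7496.6 (0.059), a pseudocount of 1 MSTRG.14038.1 (0.17) and of 0.01 MSTRG.6113.1 (-0.68). With 1 library left out, differences that changed sign ranged from -0.49 to 0.13 for MSTRG.1972.2, -0.47 to 0.96 for MSTRG.6113.1, -0.17 to 0.97 for MSTRG.6636.7, -0.48 to 0.078 for MSTRG.7496.6, -0.27 to 0.28 for MSTRG.11037.1, -0.81 to 2.28 for MSTRG.11367.1, -0.085 to 0.40 for MSTRG.13364.1 and -0.85 to 0.61 for MSTRG.14038.1. Called long intergenic transcripts numbered 0 as reported (82 at an unadjusted p under 0.05), 2 without the trend and 59 when an unadjusted p under 0.05 and a log2 size of 1 or more were asked for. The median difference of 0.41 was 0.087 rescaled by median of ratios, 0.034 with quantile normalization and 0.99 at equal summed FPKM of the table, and 0.33 to 0.47 with 1 library left out. Transcripts called in the whole table numbered 1 as reported, 0 with a pseudocount of 0.01, robust eBayes, the replicate block or the fat-marker covariate, 8 without the trend, 155 at the unadjusted p with that size, and 0 to 2 with 1 library left out. Unadjusted counts of long intergenic transcripts were 75 higher and 7 lower as reported, 25 and 16 rescaled, and 47 to 86 and 4 to 17 with 1 library left out.

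Called neighbouring genes numbered 7 as reported, 0 with a pseudocount of 0.1, no filter, quantile normalization, the replicate block or the fat-marker covariate, 1 rescaled or without the trend, 2 at the unadjusted p with that size, 3 at the next locus only (chosen after seeing the data), and 0 to 10 with 1 library left out. The cause of these changes was not tested.

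Whether replicate numbers pair the libraries was not settled, because differently numbered libraries were not compared in the same way. Deviations of same-numbered libraries correlated at -0.0238 to 0.0245 over transcripts and at -0.0117 to 0.133 over genes. Over genes, replicates 1 (0.133) and 4 (0.121) exceeded 0.1 and the other numbers did not. With the replicate block, 0 transcripts and 0 neighbouring genes were called. Neighbour windows in bases were not run. Read counts were not analysed here, so what depth limits was not tested.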
